A study of Mus musculus with 15 samples.

Results

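Receptor activator of NF-κB (RANK, *Tnfrsf11a*), the M-CSF receptor (*Csf1r*) and 8 signalling genes that act beneath them (*Traf1*, *Traf2*, *Traf3*, *Traf5*, *Traf6*, *Cyld*, *Map3k14* and *Grb2*) were examined in the transcriptome of mouse bone marrow-derived macrophages (BMDMs). The 10 genes were picked by symbol from the 20089 complete gene entries of the deposited expression table, and all 10 were present. The BMDMs came from wild-type C57BL/6 mice and had been grown in M-CSF, and 5 groups of 3 samples were sequenced: control cells in M-CSF, M-CSF with RANKL for 4 h, M-CSF with RANKL for 72 h, M-CSF with LPS for 4 h, and M-CSF with LPS for 72 h. RANKL, the ligand of RANK, drives macrophages to become osteoclasts, the cells that resorb bone, and LPS (lipopolysaccharide, a bacterial cell wall component) drives inflammatory activation through another receptor. All groups shared M-CSF, and M-CSF alone was not sampled at the later time, so that stimulus and time in culture cannot be told apart in the 72 h samples. The labels do not say whether replicates came from separate mice or cultures, so the p-values measure only the spread between these samples.

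RANK has no enzymatic activity of its own and passes its signal on through adaptor proteins of the TRAF family, of which TRAF6 feeds the canonical NF-κB and MAP kinase routes. TRAF2 and TRAF3 hold the kinase NIK (*Map3k14*) at a low level in resting cells by marking it for degradation, and release of NIK opens the alternative NF-κB route. CYLD removes ubiquitin chains that TRAF6 builds. The M-CSF receptor is a tyrosine kinase that keeps macrophages and osteoclast precursors alive, and GRB2 links it to the RAS pathway.

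Expression was given in FPKM, which is fragments scaled to transcript length and to the mapped fragments of the sample, and so is comparable between genes of different length. Between 18306184 and 20330207 fragments per sample lay on the listed genes, and each value of the 10 genes rested on 121 to 29486 fragments. A gene was called higher or lower when its fold change exceeded 1.5 or was under 0.66 with an unadjusted p under 0.05 in limma, fitted on log2(FPKM + 0.1) over 11743 genes, and the Benjamini-Hochberg adjusted p over all of them is given beside it. The labels were checked against marker genes. The summed FPKM of 10 macrophage markers was 7570 to 9370 in control cells, that of 10 osteoclast markers rose from 155 to 280 in control cells to 1721 to 5474 after 72 h of RANKL, and that of 10 LPS response genes lay at 15117 to 18380 after 4 h of LPS against 827 to 2164 in control cells. Other cells were also represented. The 8 granulocyte markers summed to 7525 to 22598 FPKM in control cells, 1722 to 6821 after 72 h of RANKL and 150 to 1779 after 72 h of LPS, and 18 stromal cell markers summed to 196 to 431, 514 to 2296 and 161 to 647. In bulk RNA of such cultures, fewer cells of a type and less RNA per cell cannot be told apart.

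All 10 genes were detected in every sample, over a wide range of levels. In control cells *Csf1r* was the highest at 198 ± 16.3 FPKM (SD, n = 3), followed by *Grb2* at 98.9 ± 5.48, *Tnfrsf11a* at 16.6 ± 1.76 and *Traf6* at 8.07 ± 0.96. *Cyld* at 6.09 ± 0.25, *Map3k14* at 5.67 ± 0.19, *Traf3* at 5.28 ± 0.62, *Traf2* at 4.88 ± 0.53 and *Traf5* at 4.57 ± 0.32 lay close together, and from *Map3k14* to *Traf5* each overlapped the next gene in its replicates. *Traf1* was the lowest at 2.18 ± 0.82 FPKM. *Csf1r* and *Grb2* were the most abundant pair in all 5 groups, whereas the lowest place passed to *Traf5* after 72 h of either stimulus and to *Map3k14* after 4 h of LPS.

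**Figure D1:**
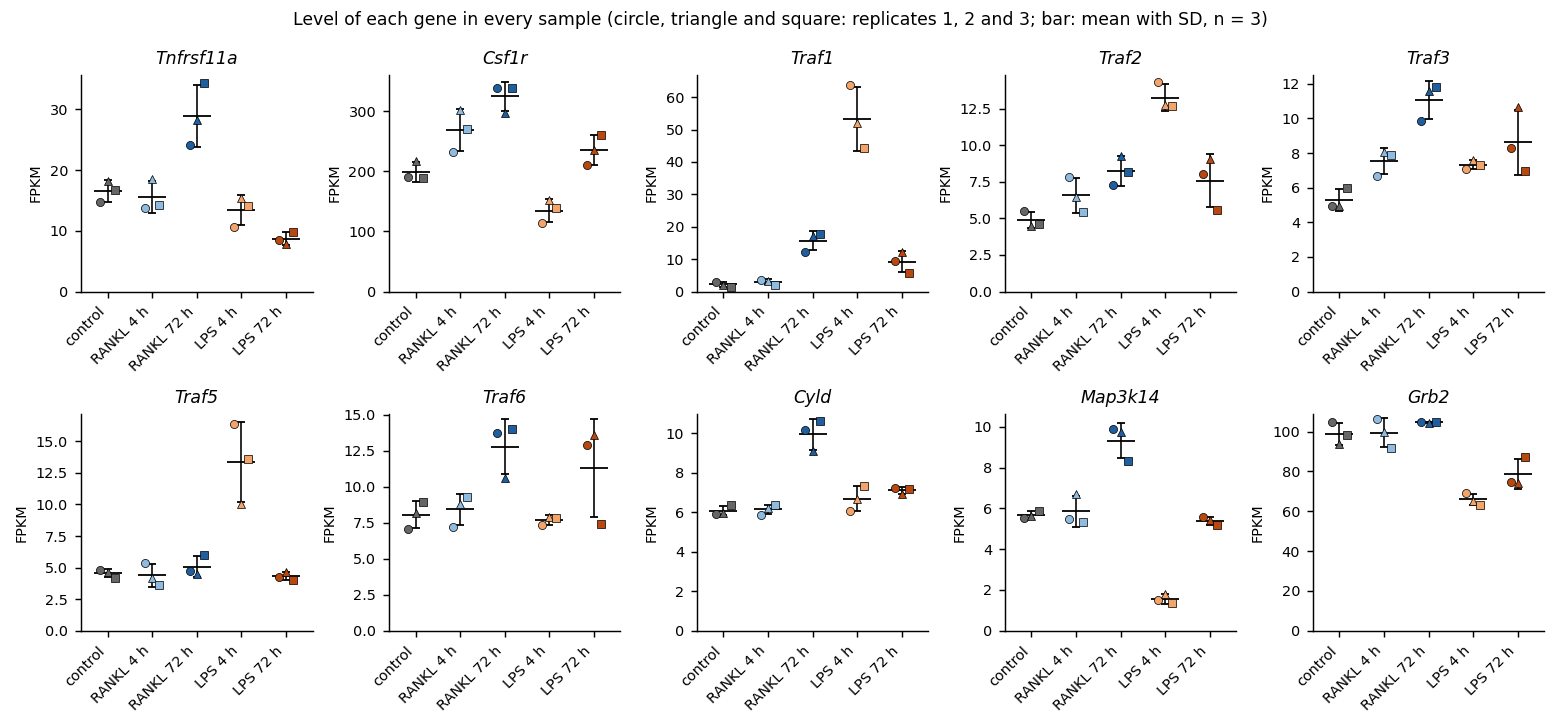
FPKM of each of the 10 genes (vertical axis, starting at 0) in every sample of the 5 groups (horizontal axis), with circle, triangle and square for replicates 1, 2 and 3 and a bar for the mean with SD (n = 3). *Tnfrsf11a*, *Cyld* and *Map3k14* stand highest after 72 h of RANKL, *Traf1*, *Traf2* and *Traf5* stand highest after 4 h of LPS, and *Map3k14* is lowest after 4 h of LPS.

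After 72 h of RANKL most of this signalling apparatus was higher than in control cells. Of the 10 genes, 8 were called higher against control and 0 lower, beside 20.2% and 9.04% of all tested genes, and only *Traf5* and *Grb2* were not called. All 8 calls had an adjusted p under 0.05, beside 24.2% of all tested genes that passed the fold threshold with such a p. In the same 8 the RANKL and control replicates did not overlap, beside 49.1% of all tested genes. The median change of the 10 genes was 0.71 on the log2 scale, beside 0.16 for all tested genes. Part of the count rested on this upward shift of the whole table: when each sample was centred on its median gene, 2 genes remained called (*Traf1* and *Traf3*, beside 12.7% of all tested genes higher), and in limma voom with TMM scaling on fragments recovered from the FPKM steps 4 remained called (*Tnfrsf11a*, *Traf1*, *Traf2* and *Traf3*, beside 15.5%). With each sample scaled to an equal sum, 8 genes were called higher, beside 2978 of 11743 tested genes. The medians were then 0.82 for the 10 genes and 0.27 for all tested genes. Of all calls in this comparison 69.0% were higher as deposited, 77.1% with equal sums, 47.1% after centring and 55.8% in voom. With the mean level of the stromal markers as a covariate, 8 genes were called higher, beside 2578 of 11743 tested genes higher and 1372 lower. The stromal sums of the RANKL 72 h samples (514 to 2296 FPKM) all lay above those of control (196 to 431 FPKM). This fit therefore cannot separate stromal content from the stimulus.

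RANKL for 4 h called 0 of the 10 genes in either direction, beside 1.21% of all tested genes called higher and 1.35% called lower. In limma, 3 of them (*Csf1r*, *Traf2* and *Traf3*) had an unadjusted p under 0.05. The share of all tested genes at that p alone was not counted, here or for the gene lists below. Voom called 0 of the 10, beside 132 of 11743 tested genes higher and 153 lower.

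LPS for 4 h gave another picture, with 3 genes called higher (*Traf1*, *Traf2* and *Traf5*) and 1 lower (*Map3k14*), beside 8.75% and 41.0% of all tested genes. The median change was -0.52 on the log2 scale for all tested genes and 0.03 for the 10 genes. Of all calls 17.6% were higher as deposited, 55.0% after centring and 46.1% in voom, and after centring and in voom 5 of the 10 genes were higher and 1 lower. The shares of all tested genes called higher and lower were then 17.4% and 14.3% after centring, and 15.3% and 17.9% in voom. After 72 h of LPS, 3 were called higher (*Traf1*, *Traf2* and *Traf3*) and 1 lower (*Tnfrsf11a*), beside 14.9% and 16.1% of all tested genes, with medians of 0.23 for the 10 genes and 0.08 for all tested genes. All of these calls had an adjusted p under 0.05. Of 11743 tested genes, 5650 passed the fold threshold with such a p after 4 h of LPS and 3212 after 72 h of LPS.

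**Figure D2:**
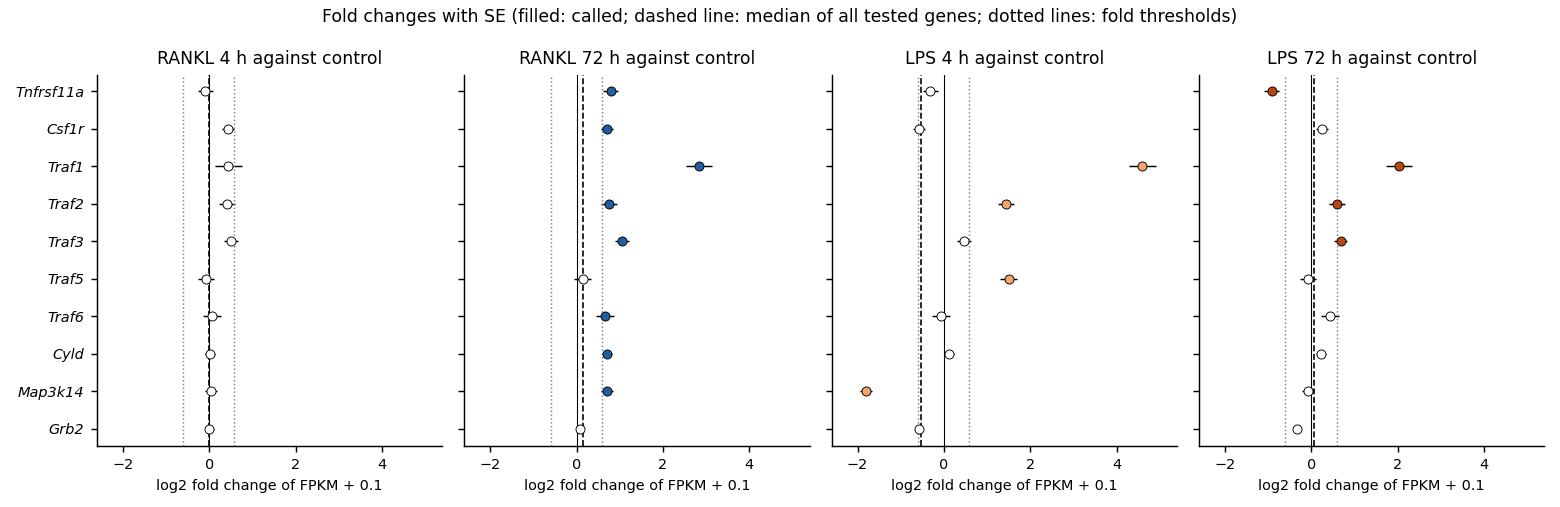
Log2 fold change of FPKM + 0.1 with its SE (horizontal axis) for each of the 10 genes (vertical axis) in the 4 comparisons with control; filled points passed the call, the dashed line is the median of all tested genes and dotted lines are the fold thresholds. The RANKL 72 h panel has 8 filled points on the right, and the LPS 4 h panel has *Traf1* at 4.60 and *Map3k14* at -1.80 with the dashed line at -0.52.

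*Tnfrsf11a* (Ensembl ENSMUSG00000026321, GRCm38 chr1:105780718-105847981, forward strand), the receptor for RANKL, moved in opposite directions under long RANKL and long LPS. Control replicates 1, 2 and 3 held 14.7, 18.2 and 16.7 FPKM. After 4 h of RANKL they held 13.8, 18.5 and 14.3 FPKM, and after 72 h of RANKL 24.1, 28.2 and 34.4 FPKM. After 4 h of LPS the values were 10.6, 15.4 and 14.1 FPKM, and after 72 h of LPS 8.43, 7.90 and 9.85 FPKM. Every RANKL 72 h sample thus stood above every sample of the other groups, and every LPS 72 h sample below them, while control, RANKL 4 h and LPS 4 h overlapped. Against control, *Tnfrsf11a* rose by 0.79 on the log2 scale with RANKL 72 h (SE 0.17, limma adjusted p = 0.00427), a call lost after centring (0.57), and changed by -0.92 with LPS 72 h (SE 0.17, adjusted p = 0.00127). The LPS 4 h difference was -0.32 (adjusted p = 0.13) and turned to 0.25 after centring and 0.18 in voom. The difference between RANKL 72 h and LPS 72 h was 1.71 (adjusted p = 4.66e-06).

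*Csf1r* (ENSMUSG00000024621), the receptor for M-CSF, was the most abundant transcript of the 10. Its control values were 190, 217 and 188 FPKM, those after 4 h of RANKL 232, 302 and 270 FPKM, and those after 72 h of RANKL 339, 297 and 339 FPKM. After LPS they were 113, 152 and 138 FPKM at 4 h and 210, 235 and 261 FPKM at 72 h. The RANKL samples of both times lay above all control samples, the LPS 4 h samples lay below all of them, and the LPS 72 h samples overlapped control. *Csf1r* rose by 0.71 after 72 h of RANKL (SE 0.14, adjusted p = 0.00208), a call lost after centring (0.49) and in voom (0.56). The RANKL 4 h difference of 0.43 (adjusted p = 0.532) stayed under the fold threshold. The LPS 4 h difference of -0.57 (adjusted p = 0.0031) was also under the fold threshold, and it was close to the median change of all genes in that comparison. It passed the threshold without control replicate 3 (-0.60) or LPS 4 h replicate 2 (-0.66).

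The ratio of the receptors within a sample does not depend on the scaling of the table. *Csf1r* FPKM per *Tnfrsf11a* FPKM was 12.03 ± 0.81 in control cells (SD, n = 3), 17.3 ± 1.36 after 4 h of RANKL and 11.5 ± 2.26 after 72 h of RANKL. It was 10.1 ± 0.48 after 4 h of LPS and 27.1 ± 2.50 after 72 h of LPS. The LPS 72 h samples (24.9 to 29.8) and the RANKL 4 h samples (16.3 to 18.9) each stood above all control samples (11.3 to 12.9), whereas the RANKL 72 h samples spread across them (9.85 to 14.0).

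The upstream sequences of *Traf1*, *Traf3* and *Cyld* are shown because *Traf1* and *Traf3* held their RANKL 72 h call under every scaling tried and *Traf3* and *Cyld* were the only ones of the 9 genes searched with a match to the classical NF-κB (κB) consensus there. The sequences are RefSeq promoters on GRCm38.p6, matched by symbol for 9 of the 10 genes (all but *Csf1r*), and cover the 250 bases before the start site in the direction of transcription, with a κB match in capitals. The κB consensus was searched on both strands and was found in 2 of these 9 genes, beside 7.25% of 32841 mouse promoters of the same length. The PU.1 core GAGGAAG on either strand was found in 4 of the 9 (*Traf2*, *Traf6*, *Cyld* and *Grb2*), beside 10.6% of promoters, and the AP-1 site TGACTCA or TGAGTCA in 0 of the 9, beside 4.46%. The counts are by gene and the shares by promoter, and *Grb2* had 2 promoters, of which 1 held the PU.1 core. A match is a description of the letters in this window, and a missing match says only that they are not in it.
Traf3, chr12:111166120-111166369, forward strand: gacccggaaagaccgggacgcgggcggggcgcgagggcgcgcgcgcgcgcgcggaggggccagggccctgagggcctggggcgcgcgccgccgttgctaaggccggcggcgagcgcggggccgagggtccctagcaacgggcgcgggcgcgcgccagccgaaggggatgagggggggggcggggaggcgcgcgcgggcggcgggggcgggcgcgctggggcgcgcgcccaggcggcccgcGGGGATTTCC
Cyld, chr8:88696778-88697027, forward strand: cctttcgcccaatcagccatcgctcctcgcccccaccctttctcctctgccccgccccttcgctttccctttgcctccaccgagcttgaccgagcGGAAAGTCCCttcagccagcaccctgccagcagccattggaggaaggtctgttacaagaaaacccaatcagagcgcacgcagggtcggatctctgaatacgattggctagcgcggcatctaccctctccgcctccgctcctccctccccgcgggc
Traf1, chr2:34961773-34962022, reverse strand: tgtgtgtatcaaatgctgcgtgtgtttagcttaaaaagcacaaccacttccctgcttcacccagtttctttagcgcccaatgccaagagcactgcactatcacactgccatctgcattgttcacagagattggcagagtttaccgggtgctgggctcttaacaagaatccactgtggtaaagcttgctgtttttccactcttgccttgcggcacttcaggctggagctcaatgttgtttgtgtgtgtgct
The match of *Traf3* began 10 bases before the start site and that of *Cyld* 155 bases before it.

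*Traf1* (ENSMUSG00000026875, GRCm38 chr2:34941750-34961772, reverse strand) encodes a TRAF without the RING domain of its relatives, which pairs with TRAF2, and it is a known NF-κB target gene. Of the 10 it showed the largest change against control after 72 h of RANKL, 4 h of LPS and 72 h of LPS. Its values were 3.03, 2.12 and 1.40 FPKM in control cells, 3.59, 3.17 and 2.08 FPKM after 4 h of RANKL and 12.3, 16.997 and 17.8 FPKM after 72 h of RANKL. They were 63.9, 51.9 and 44.2 FPKM after 4 h of LPS and 9.56, 12.3 and 5.85 FPKM after 72 h of LPS. Control and RANKL 4 h overlapped, every sample of the other 3 groups stood above them, and the LPS 4 h samples stood above all others. Against control, *Traf1* rose by 2.84 after 72 h of RANKL (SE 0.31, adjusted p = 2.88e-05), by 4.60 after 4 h of LPS (SE 0.31, adjusted p = 7.22e-08) and by 2.03 after 72 h of LPS (SE 0.31, adjusted p = 0.000243). The RANKL 4 h difference was 0.45 (adjusted p = 1).

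*Traf2* (ENSMUSG00000026942, chr2:25517982-25546940, reverse strand), which recruits the cIAP ubiquitin ligases, followed the same order on a smaller scale. Its control values were 5.48, 4.51 and 4.64 FPKM, against 7.84, 6.47 and 5.43 after 4 h and 7.28, 9.29 and 8.15 after 72 h of RANKL. LPS gave 14.3, 12.8 and 12.7 FPKM at 4 h and 8.07, 9.08 and 5.57 FPKM at 72 h. LPS 4 h stood above all other groups, and RANKL 72 h and LPS 72 h lay above control and overlapped each other. *Traf2* rose by 1.43 after 4 h of LPS (adjusted p = 2.39e-05), by 0.74 after 72 h of RANKL (adjusted p = 0.00845, 0.52 with no call after centring) and by 0.60 after 72 h of LPS (adjusted p = 0.0219). The last of these was just past the fold threshold and was lost after centring (0.52), in voom (0.58), with a pseudocount of 1 (0.52) and without LPS 72 h replicate 2 (0.46), LPS 72 h replicate 1 (0.54) or control replicate 2 (0.55) or 3 (0.57). The RANKL 4 h difference was 0.41 (adjusted p = 0.961).

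*Traf3* (ENSMUSG00000021277, chr12:111166370-111267153, forward strand), the adaptor that ties NIK to its degradation, had its highest mean after 72 h of RANKL. Control samples held 4.92, 4.92 and 5.99 FPKM, RANKL 4 h samples 6.65, 8.05 and 7.89 FPKM and RANKL 72 h samples 9.83, 11.6 and 11.8 FPKM. LPS 4 h samples held 7.09, 7.60 and 7.28 FPKM and LPS 72 h samples 8.27, 10.6 and 6.95 FPKM. Every stimulated sample was above every control sample. *Traf3* rose by 1.06 after 72 h of RANKL (SE 0.16, adjusted p = 0.000305) and by 0.68 after 72 h of LPS (SE 0.16, adjusted p = 0.00435), the latter losing its call without LPS 72 h replicate 2 (0.52). The 4 h differences of 0.51 for RANKL (adjusted p = 0.474) and 0.47 for LPS (adjusted p = 0.0188) were under the fold threshold. RANKL 4 h passed it without control replicate 3 (0.60) or RANKL 4 h replicate 1 (0.59), and LPS 4 h passed it after centring (1.04) and in voom (0.98).

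*Traf5* (ENSMUSG00000026637, chr1:191997205-192092559, reverse strand), a close relative of TRAF2 in several TNF receptor pathways, responded to short LPS alone among the 4 comparisons with control. Its values were 4.84, 4.65 and 4.21 FPKM in control cells, 5.37, 4.19 and 3.59 FPKM after 4 h of RANKL and 4.71, 4.47 and 6.02 FPKM after 72 h of RANKL. They were 16.4, 10.0487 and 13.6 FPKM after 4 h of LPS and 4.24, 4.66 and 4.06 FPKM after 72 h of LPS. Samples of LPS 4 h stood above all 12 others, which overlapped one another. *Traf5* rose by 1.5003 after 4 h of LPS (SE 0.19, adjusted p = 2.22e-05). The 95% interval of its RANKL 72 h difference ran from -0.27 to 0.55.

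*Traf6* (ENSMUSG00000027164, chr2:101678429-101701669, forward strand), the ubiquitin ligase through which RANK activates canonical NF-κB, showed 1 call among the 4 comparisons with control. Its values were 7.05, 8.19 and 8.97 FPKM in control cells, 7.22, 8.77 and 9.30 FPKM after 4 h of RANKL and 13.7, 10.6 and 14.0 FPKM after 72 h of RANKL. They were 7.31, 7.91 and 7.84 FPKM after 4 h of LPS and 12.9, 13.6 and 7.40 FPKM after 72 h of LPS. The RANKL 72 h samples lay above control, and of the LPS 72 h samples 2 did and replicate 3 did not. *Traf6* rose by 0.65 after 72 h of RANKL (SE 0.20, adjusted p = 0.0269). That call was lost after centring (0.43), in voom (0.50) and without control replicate 1 (0.56) or RANKL 72 h replicate 3 (0.58). The LPS 72 h difference was 0.44 (adjusted p = 0.111), and 0.71 with a call without LPS 72 h replicate 3.

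The same LPS 72 h replicate 3 had the lowest level of its group for all 5 *Traf* genes and *Map3k14* and the highest for *Tnfrsf11a*, *Csf1r* and *Grb2*, with *Cyld* between the others. It had a summed stromal marker level of 647 FPKM, against 161 and 177 in replicates 1 and 2. The part of those cells in its values was not tested.

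The 5 *Traf* genes together held 24.97 ± 0.51 FPKM in control cells (SD, n = 3), 29.9 ± 1.37 after 4 h of RANKL, 52.9 ± 4.995 after 72 h of RANKL, 94.9 ± 12.4 after 4 h of LPS and 41.0 ± 10.3 after 72 h of LPS. *Traf1* made up 8.74% ± 3.21 of this sum in control cells, 9.80% ± 2.23 after 4 h of RANKL and 29.5% ± 3.42 after 72 h of RANKL. It made up 55.9% ± 3.73 after 4 h of LPS and 22.1% ± 2.41 after 72 h of LPS. The least abundant of the 10 transcripts in control cells was therefore the most abundant TRAF after 4 h of LPS.

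*Cyld* (ENSMUSG00000036712, chr8:88697028-88751945, forward strand), the deubiquitinase that opposes TRAF6, rose with long RANKL. Its values were 5.91, 5.99 and 6.37 FPKM in control cells, 5.88, 6.20 and 6.37 FPKM after 4 h of RANKL and 10.2, 9.10 and 10.6 FPKM after 72 h of RANKL. They were 6.06, 6.66 and 7.34 FPKM after 4 h of LPS and 7.23, 6.91 and 7.20 FPKM after 72 h of LPS. The RANKL 72 h samples stood above all 12 others. The RANKL 72 h change was 0.70 (SE 0.11, adjusted p = 0.000573), lost after centring (0.48) and in voom (0.55). The LPS 4 h difference of 0.13 (adjusted p = 0.34) became 0.70 after centring and 0.63 in voom, with a call in both, since the median gene was lower in that comparison.

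*Map3k14* (ENSMUSG00000020941, chr11:103219762-103267472, reverse strand) encodes NIK, the kinase at the head of the alternative NF-κB route. Its values were 5.51, 5.61 and 5.88 FPKM in control cells, 5.49, 6.73 and 5.35 FPKM after 4 h of RANKL and 9.91, 9.73 and 8.33 FPKM after 72 h of RANKL. They were 1.51, 1.82 and 1.37 FPKM after 4 h of LPS and 5.58, 5.43 and 5.18 FPKM after 72 h of LPS. RANKL 72 h stood above and LPS 4 h below every other sample, and LPS 72 h overlapped control. *Map3k14* fell by 1.80 after 4 h of LPS (SE 0.14, adjusted p = 3e-07), and after centring it was still lower, at -1.23. It rose by 0.70 after 72 h of RANKL (SE 0.14, adjusted p = 0.00243), a call lost after centring (0.49) and in voom (0.56).

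*Traf3* FPKM per *Map3k14* FPKM, the ratio of the transcript of NIK's restraint to that of NIK, was 0.93 ± 0.08 in control cells (SD, n = 3), 1.29 ± 0.16 after 4 h of RANKL and 1.20 ± 0.21 after 72 h of RANKL. It was 4.74 ± 0.58 after 4 h of LPS and 1.59 ± 0.32 after 72 h of LPS. The LPS 4 h samples (4.18 to 5.33) stood apart from all 12 others, which did not exceed 1.96.

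*Grb2* (ENSMUSG00000059923, chr11:115644045-115708597, reverse strand), the adaptor between tyrosine kinases and SOS, was even across the control and RANKL samples. Its values were 105, 93.8 and 98.3 FPKM in control cells, 106, 99.9 and 91.7 FPKM after 4 h of RANKL and 105, 104 and 105 FPKM after 72 h of RANKL. They were 69.2, 65.3 and 63.4 FPKM after 4 h of LPS and 74.4, 74.3 and 87.2 FPKM after 72 h of LPS. All LPS samples lay below all control and RANKL samples. The LPS 4 h difference of -0.58 (adjusted p = 0.000168) and the LPS 72 h difference of -0.33 (adjusted p = 0.016) were under the fold threshold, and the former was close to the median gene. The former also passed the threshold with each sample scaled to an equal sum (-0.60) and without control replicate 2 or LPS 4 h replicate 1 (both -0.62). The 95% interval of the RANKL 72 h difference ran from -0.12 to 0.29.

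**Figure D3:**
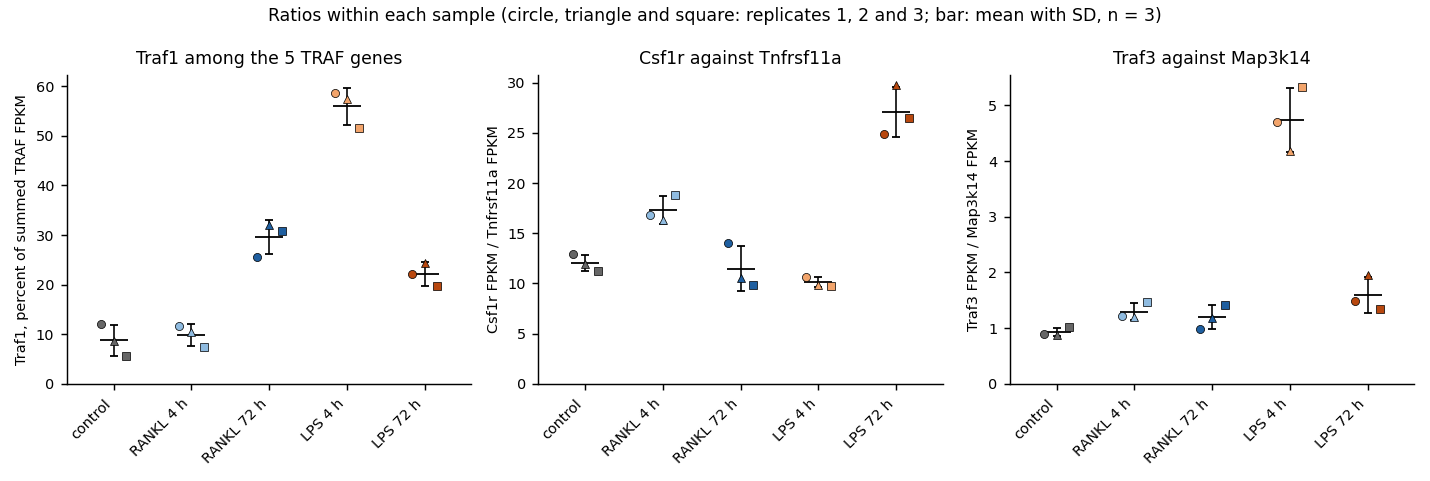
Ratios within each sample for the 5 groups, with replicates 1, 2 and 3 as circle, triangle and square and the mean with SD (n = 3): *Traf1* as a percent of the summed FPKM of the 5 *Traf* genes, *Csf1r* FPKM per *Tnfrsf11a* FPKM and *Traf3* FPKM per *Map3k14* FPKM, each axis starting at 0. LPS 4 h stands apart in the *Traf1* share and in *Traf3* per *Map3k14*, with means of 55.9% and 4.74, and LPS 72 h in *Csf1r* per *Tnfrsf11a*, with a mean of 27.1.

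Set directly against LPS at 4 h, RANKL left 3 genes higher (*Csf1r*, *Map3k14* and *Grb2*) and 3 lower (*Traf1*, *Traf2* and *Traf5*), beside 42.5% and 9.31% of all tested genes. The log2 differences were 0.997 for *Csf1r* (adjusted p = 4.14e-05), 1.84 for *Map3k14* (adjusted p = 2.31e-07) and 0.59 for *Grb2* (adjusted p = 0.000148), against 0.53 for the median gene. Those of *Csf1r* and *Grb2* were no longer called after centring (0.43 and 0.02) or in voom (0.50 and 0.09), and *Grb2* also lost its call with a pseudocount of 1 (0.58) and on leaving out any of 4 single samples (0.54 to 0.58). *Cyld*, at -0.12 (adjusted p = 0.394) as deposited, was called lower after centring (-0.68) and in voom (-0.62), so that 1 gene was higher and 4 were lower in each, beside 14.7% and 17.6% of all tested genes after centring and 18.2% and 15.4% in voom. Of all calls 82.0% were higher as deposited, 45.6% after centring and 54.1% in voom. *Traf1* at -4.15 (adjusted p = 1.62e-07), *Traf2* at -1.01 (adjusted p = 0.000353) and *Traf5* at -1.58 (adjusted p = 1.34e-05) lay further below the median gene than below 0.

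At 72 h, RANKL against LPS gave 3 genes higher (*Tnfrsf11a*, *Traf1* and *Map3k14*) and 0 lower, beside 25.1% and 13.8% of all tested genes. *Tnfrsf11a* differed by 1.71 and *Map3k14* by 0.77 (adjusted p = 0.000578), each with no overlap between the groups. *Traf1* differed by 0.80 (adjusted p = 0.0453) with overlapping samples, and lost its call after centring (0.67) and without LPS 72 h replicate 3 (0.51), RANKL 72 h replicate 2 (0.74) or RANKL 72 h replicate 3 (0.70). Of all calls 64.6% were higher as deposited and 53.1% after centring. After centring 2 of the 10 genes were called higher, beside 2433 of 11743 tested genes, and in voom 3, beside 2553. *Csf1r* at 0.47 (adjusted p = 0.0138), *Cyld* at 0.48 (adjusted p = 0.00361) and *Grb2* at 0.41 (adjusted p = 0.00318) did not overlap either and were under the fold threshold. The share of all tested genes without overlap was not counted in this comparison.

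Between the times of one stimulus, RANKL 72 h against RANKL 4 h had 5 genes higher (*Tnfrsf11a*, *Traf1*, *Traf6*, *Cyld* and *Map3k14*) and 0 lower, beside 20.1% and 8.24% of all tested genes. After centring and in voom 2 of them remained called, *Tnfrsf11a* and *Traf1*, beside 12.4% and 15.3% of all tested genes called higher, and of all calls 70.9% were higher as deposited, 47.6% after centring and 57.7% in voom. LPS 72 h against LPS 4 h had 2 higher (*Csf1r* and *Map3k14*) and 3 lower (*Traf1*, *Traf2* and *Traf5*), beside 45.0% and 14.3%. *Csf1r* was no longer called after centring (0.16) or in voom (0.28), and of all calls 75.8% were higher as deposited, 40.6% after centring and 50.1% in voom. *Tnfrsf11a* changed by -0.60 (adjusted p = 0.0076) in that comparison, with a fold of 0.6603 just outside the threshold of 0.66. It was called lower after centring (-1.25), in voom (-1.14), with the stromal covariate (-0.61), with a pseudocount of 0.01 (-0.60) and without LPS 4 h replicate 1 (-0.76) or LPS 72 h replicate 3 (-0.69).

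**Figure D4:**
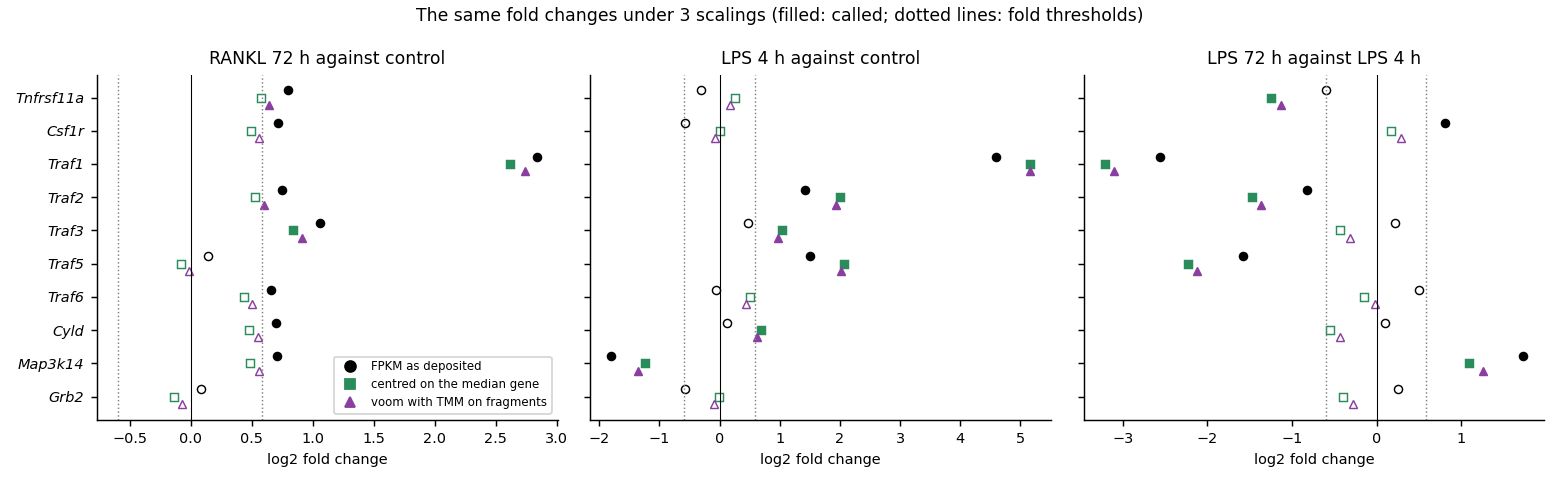
Log2 fold change of the 10 genes in 3 comparisons under FPKM as deposited (circles), after centring each sample on its median gene (squares) and in voom with TMM on recovered fragments (triangles), filled where called, with dotted lines at the fold thresholds. In RANKL 72 h against control the filled points go from 8 to 2 and 4, and in LPS 4 h against control *Traf3* and *Cyld* gain a call.

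The wider pathway was described by lists of genes around the 10. Their counts stand beside 1.21% of all tested genes higher and 1.35% lower after RANKL 4 h, 20.2% and 9.04% after RANKL 72 h, 8.75% and 41.0% after LPS 4 h, and 14.9% and 16.1% after LPS 72 h. The 8 NF-κB subunits and inhibitors were called higher in 3 and 6 cases after 4 h and 72 h of RANKL and in 8 and 6 after 4 h and 72 h of LPS, with 0 lower, with list medians of 0.48, 1.13, 3.00 and 1.09 in the same order beside 0.0016, 0.16, -0.52 and 0.08 for all tested genes. After 4 h of RANKL these were *Relb* (5.53 to 13.7 FPKM, log2 change 1.33, adjusted p = 0.112) and *Nfkb2* (11.7 to 24.1 FPKM, 1.05, adjusted p = 0.0449), the pair of the alternative NF-κB route, and *Nfkbia*, the inhibitor IκBα (0.64, adjusted p = 0.578). After 72 h of RANKL *Nfkb2* reached 55.1 FPKM (2.24, adjusted p = 2.41e-06), and after 4 h of LPS *Nfkbia* reached 716 FPKM (4.05, adjusted p = 1.01e-08).

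Of 14 other TRAF family and TRAF-binding proteins, 1 was called higher after RANKL 4 h, 2 higher and 3 lower after RANKL 72 h, 8 higher and 2 lower after LPS 4 h, and 3 higher and 2 lower after LPS 72 h. Their medians were 0.03, 0.02, 0.67 and 0.14. After RANKL 72 h the 14.3% of the list called higher lay under the 20.2% of all tested genes, and its median lay under the 0.16 of all tested genes. *Birc3*, a cIAP ubiquitin ligase recruited by TRAF2, rose by 2.11 after 72 h of RANKL (11.2 to 48.6 FPKM, adjusted p = 1.32e-06) and by 3.04 after 4 h of LPS (adjusted p = 1.01e-08). *Tnfaip3* (A20), an inhibitor of NF-κB signalling, rose by 4.14 after 4 h of LPS (18.9 to 335 FPKM, adjusted p = 1.49e-09). *Sqstm1* (p62), a scaffold of TRAF6, was the gene called after 4 h of RANKL (460 to 819 FPKM, 0.84, adjusted p = 0.331). After 72 h of RANKL its mean of 281 FPKM lay below that of control. *Trafd1* was among the 3 genes called lower after 72 h of RANKL (125 to 49.0 FPKM, -1.32, adjusted p = 0.00144).

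Below the TRAF proteins, 0 of 7 genes of the TAK1 and IKK complexes were called in limma after either time of RANKL, with 0 at 4 h and 3 at 72 h at an unadjusted p under 0.05, and voom called 0 at each time. After LPS 4 h 1 was higher (*Tab2*, 0.69, adjusted p = 0.000306) and 1 lower (*Tab1*, 7.01 to 2.29 FPKM, -1.60, adjusted p = 1.69e-06), and after LPS 72 h also 1 each way. The 5 genes of the linear ubiquitin ligase and its deubiquitinases had 0 calls in limma after RANKL 4 h (1 at an unadjusted p under 0.05 and 0 calls in voom), 1 lower after RANKL 72 h (*Rnf31*, -0.79, adjusted p = 0.00191), 1 higher and 1 lower after LPS 4 h (*Rnf31* 1.24 and *Otulin* -0.60) and 2 higher after LPS 72 h (*Sharpin* 0.66 and *Spata2* 0.60). The medians after RANKL 4 h, RANKL 72 h, LPS 4 h and then LPS 72 h were 0.09, 0.25, -0.19 and 0.29 for the TAK1 and IKK genes and 0.03, -0.36, -0.49 and -0.04 for the linear ubiquitin genes.

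Of 19 genes of M-CSF receptor signalling beside *Grb2*, 2 were lower after RANKL 4 h (*Gab1* -0.85 and *Pik3cd* -0.63, adjusted p = 0.331 and 0.264) and 1 higher after RANKL 72 h. The latter was *Src*, the kinase needed for the ruffled border of osteoclasts, which rose from 4.35 to 30.3 FPKM (2.74, adjusted p = 6.04e-05). LPS called 2 higher and 6 lower at 4 h, among them *Src* at 3.77 (adjusted p = 6.42e-07) and *Inpp5d*, the phosphatase SHIP1, at -2.13 (55.4 to 12.6 FPKM, adjusted p = 7.52e-08), and 2 higher and 3 lower at 72 h. At 4 h of LPS 31.6% of the list was lower, under the 41.0% of all tested genes, and the list median of -0.44 was near the -0.52 of all tested genes. The other medians were 0.04 and 0.08 after 4 h and 72 h of RANKL and 0.07 after 72 h of LPS.

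Among 4 genes for the ligands and the decoy receptor, 1 was higher after RANKL 4 h, 2 after RANKL 72 h, 2 after LPS 4 h and 1 after LPS 72 h, and 0 were lower, with medians of -0.11, 0.94, 1.02 and 0.22. *Csf1*, which encodes M-CSF, rose from 10.2 to 31.4 FPKM after 4 h of LPS (1.64, adjusted p = 0.00061). *Tnfrsf11b*, which encodes the RANKL decoy osteoprotegerin, rose from 0.60 to 2.57 FPKM after 72 h of RANKL (1.93, adjusted p = 0.000589). The stromal marker level was also higher in those samples. *Tnfrsf11b* was also called higher after 4 h of RANKL (1.22, adjusted p = 0.264) and of LPS (0.92, adjusted p = 0.0211). Stromal marker sums at 4 h were 236 to 447 FPKM with RANKL and 212 to 410 with LPS, against 196 to 431 in control. Of 18 stromal markers, limma called 0 in either 4 h comparison with control, and voom called 0 with RANKL and 2 with LPS. The part of stromal cells in these changes was not tested.

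**Figure D5:**
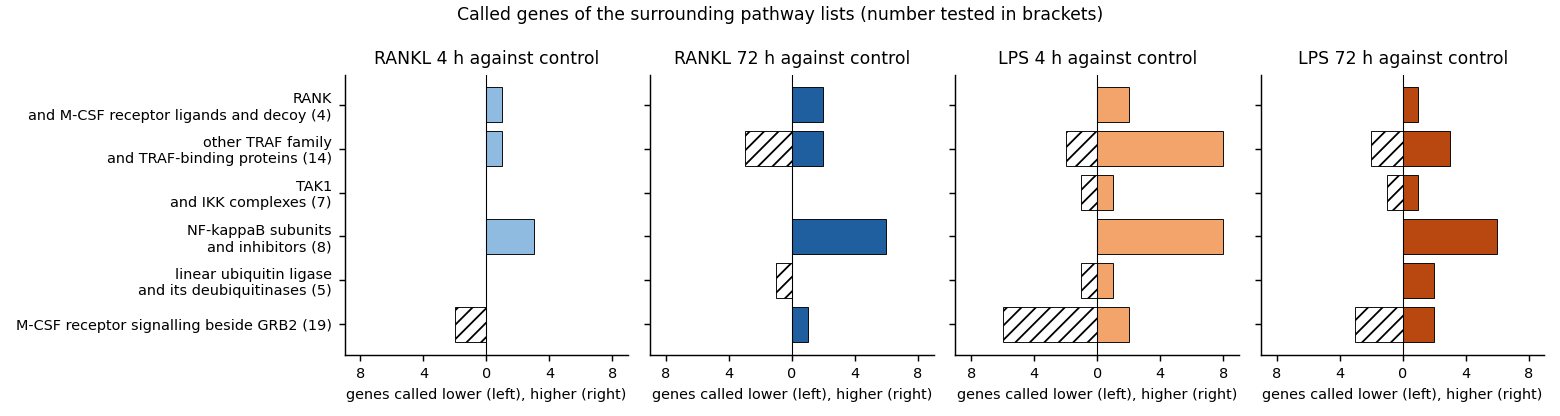
Number of genes called higher (filled bars to the right) and lower (hatched bars to the left) in 6 lists of genes around the receptors, with the number tested in brackets, in the 4 comparisons with control. The NF-κB subunits and inhibitors have bars on the right only, of 3, 6, 8 and 6 genes.

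The patterns most like those of the receptors and *Traf1* were sought by the Pearson correlation of log2(FPKM + 0.1) over the 15 samples among 9485 genes whose mean reached 1 FPKM, a description over samples that share groups and libraries. *Traf1* ran most closely with *Birc3* (r = 0.974), *Mllt6* (0.971) and *Nfkbie* (0.971), *Tnfrsf11a* with *Hnrnpa1* (0.976), *Rpl3* (0.976) and *Ids* (0.969), and *Csf1r* with *Spats2* (0.951), *Ggact* (0.947) and *Csad* (0.945). *Rpl3*, a ribosomal protein gene, had group means of 331 FPKM in control, 338 and 619 FPKM after 4 h and 72 h of RANKL and 266 and 174 FPKM after 4 h and 72 h of LPS, the same order of groups as *Tnfrsf11a* except that RANKL 4 h and control exchanged places.

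Several of the 10 loci overlap other annotated genes in GENCODE M21: *Csf1r* overlaps *Hmgxb3* on the opposite strand, *Traf3* overlaps 4930595D18Rik on the opposite strand, *Traf5* overlaps the antisense gene Gm26879, and *Map3k14* overlaps 1700028N14Rik on its own strand. On their own strand, *Csf1r* also overlaps Mir6983, *Traf5* overlaps Mir3473c and the pseudogene Gstp-ps, and *Grb2* overlaps the pseudogene Gm11702. On the opposite strand, *Traf2* overlaps the pseudogene Gm13433 and *Cyld* the pseudogenes Gm17995 and Gm17910. Overlap here means that whole gene spans met, introns included, and shared exons were not checked. The use of strand in counting was not given in the sources used here. The part of such neighbours in the values was not tested.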

How the data were processed

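RNA-seq of 15 BMDM samples was used, grouped by GEO's labels. The authors deposited FPKM per gene. The submitters' processing notes name StringTie and the builds GRCm38.p4 and mm10, and the aligner was not given in the sources used here. The table ended within an incomplete entry, and genes after it in alphabetical order were not analysed here. FPKM + 0.1 were log2-transformed, genes with a mean under 0.1 FPKM were left out, and all 5 groups were fitted together in limma 3.58.1 (R 4.3.3, eBayes with a trend) over 11743 genes. The fold and p thresholds follow the study's methods, which used a count model. FPKM are not counts, so limma on the log scale took its place. Whole fragments were recovered from the FPKM steps for each of the 14485 genes with 3 or more samples above 0 (100% within 0.01 of a whole number) and served voom as an alternative. In genes above 0 in few samples such a match can be reached by trying enough multiples. The 100% is therefore no check of the recovery in those genes. The recovery and the limma fit were tested on simulated data. The 10 genes, the lists and the comparisons were chosen with earlier results of these data known. Named genes were the 10, at most the 3 largest called changes per list and comparison, and the 3 closest patterns to *Tnfrsf11a*, *Csf1r* and *Traf1*.

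Same-numbered replicates deviated together over 9486 genes, with every correlation over 0.1, in RANKL 4 h, LPS 4 h and RANKL 72 h against control (0.707 to 0.842, 0.440 to 0.624 and 0.136 to 0.318), in RANKL 4 h against LPS 4 h (0.555 to 0.692) and in RANKL 72 h against RANKL 4 h (0.162 to 0.251), but not in the comparisons with LPS 72 h. In RANKL 72 h against control 1 replicate correlated better with another number (0.265 against 0.184), as did 1 in RANKL 72 h against RANKL 4 h (0.169 against 0.162), so the pairing at 72 h is not particular to the shared number. Lists for other cells gave low sums: in control cells 6 B cell markers summed to 16.6 to 21.3 FPKM, 6 T cell markers to 10.6 to 19.9, 5 mast cell and basophil markers to 23.3 to 66.0 and 6 dendritic cell markers to 33.0 to 146.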

Additional observations from a re-analysis of the deposited data

Results flagged for a closer look

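Levels differed between the times of one stimulus for 5 genes under RANKL and 5 under LPS, called in limma with an adjusted p under 0.05. Without an M-CSF control at 72 h, stimulus and time in culture cannot be told apart in these differences. Among all tested genes 20.1% were higher and 8.24% lower at the later time under RANKL, and 45.0% and 14.3% under LPS. Those shares use the unadjusted p. By adjusted p, 1930 of 11743 were higher and 802 lower under RANKL, and 5186 and 1631 under LPS. RANKL 72 h exceeded RANKL 4 h by 0.89 on the log2 scale for *Tnfrsf11a* (adjusted p = 0.00226), 2.39 for *Traf1* (adjusted p = 0.000115), 0.59 for *Traf6* (adjusted p = 0.0429), 0.68 for *Cyld* (adjusted p = 0.000721) and 0.67 for *Map3k14* (adjusted p = 0.00358). *Traf3* at 0.55 (adjusted p = 0.0182) was under the fold threshold. *Traf6*, *Cyld* and *Map3k14* lost the call after centring (0.37, 0.47 and 0.45) and in voom (0.45, 0.54 and 0.52). LPS 72 h exceeded LPS 4 h by 0.81 for *Csf1r* (adjusted p = 0.000163) and 1.73 for *Map3k14* (adjusted p = 3.42e-07). It was below LPS 4 h for *Traf1* at -2.56 (adjusted p = 7.46e-06), *Traf2* at -0.83 (adjusted p = 0.00127) and *Traf5* at -1.58 (adjusted p = 8.77e-06). *Csf1r* lost the call after centring (0.16) and in voom (0.28), while *Tnfrsf11a*, at -0.60 just outside the fold threshold, was called in both (-1.25 and -1.14). *Map3k14* was higher at 72 h than at 4 h under both stimuli, with all replicates of the times apart, whereas *Traf1* was higher at 72 h under RANKL and lower under LPS.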

How the results depend on the processing

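Counts of called genes among the 10 moved by over 1.5 times in a few settings. In RANKL 72 h against control 8 became 2 after centring on the median gene and 4 in voom, and in RANKL 72 h against RANKL 4 h 5 became 2 in each. With single samples left out, RANKL 4 h against control ranged from 0 to 1 (1 without control replicate 1, when *Traf1* at 0.71 was called, and 1 without control replicate 3 or RANKL 4 h replicate 1, when *Traf3* was). LPS 72 h against control ranged from 2 to 5, with 2 without LPS 72 h replicate 2. No replicate left out moved the other counts by over 1.5 times. The replicate block changed no call of the 10 genes (8 in RANKL 72 h against control, 0 in RANKL 4 h against control), in the paired comparisons and the others. Of 52 single values printed, 26 held direction and call in all alternatives, 45 of 936 alternatives lost a call, 26 gained one and 2 changed direction: *Tnfrsf11a* in LPS 4 h against control went from -0.32 (adjusted p = 0.13) to 0.25 after centring and 0.18 in voom. Over all 80 values of the 10 genes, 43 of 1440 alternatives changed sign, 0 of them with a call on either side. Among all tested genes, RANKL 4 h against control had 301 calls, 189 with a pseudocount of 1 and 14 with an adjusted p. LPS 4 h against control had 5846 calls, 3724 after centring, of which 55.0% were higher against 17.6% as deposited and 46.1% in voom. RANKL 4 h against LPS 4 h had 6082, 3792 after centring and 3941 in voom. The lowest value of the 10 genes rested on 121 fragments, and precision was limited by 3 samples per group. The cause of the scaling shifts was not tested.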
